A study of Mus musculus with 4 samples.

Results

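Integrins and laminins form the link between a muscle cell and its basement membrane. The genes described here are those whose symbols name an integrin alpha chain, an integrin beta chain or a laminin chain, and 34 of the 18193 genes with a usable probe set belong to them, 24 integrins and 10 laminins. Each gene was represented by 1 probe set. The rule used symbols alone and no measured difference, but it was set with earlier results of these data known. Of the 34 genes, 22 passed the filter on dim signals, a mean log2 signal over all arrays of 6.03 (a signal of 65.6), and were tested, and 12 lay below it. One tested gene, Lamc3, had a group mean below that filter.

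The cells were C2C12, an established mouse myoblast line whose cells fuse to myotubes in low serum. They were stable transfectants grown in 10% FBS with 750 µg/mL hygromycin B and 25 mM glucose, carrying a plasmid for a non-targeting hairpin (shControl, 2 arrays) or for a hairpin against LSD1 (shLSD1, 2 arrays). Each array gave a MAS5 signal per probe set, a linear intensity in arbitrary units. RNA was taken 48 hours after induction in 2% horse serum with 25 mM glucose. The question is which transcripts change when LSD1, a histone demethylase encoded by Kdm1a, is depleted in differentiating cells. The labels do not say how many selected populations there were per hairpin, so the hairpin and its selection cannot be told apart. Whether the replicates were separate cultures is not stated in the labels, and the p-values rest on array-to-array spread that may be technical only. The number of arrays limits the precision.

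An integrin is a pair of 1 alpha and 1 beta chain that spans the membrane, binds matrix outside and connects to actin inside through talin, kindlin and other adaptors. A laminin is a trimer of an alpha, a beta and a gamma chain that polymerises into the basement membrane. In skeletal muscle the chains encoded by Itga7 and Itgb1 form the main laminin receptor of the mature fibre, and the Lama2 chain is the main laminin alpha chain of its basement membrane. Itga4, Itga5, Itga6 and Itgav are known from myoblasts, and Lama4 and Lama5 from developing muscle.

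The labels were checked on 2 points. Kdm1a read 4603 and 4588 in shControl and 922 and 1034 in shLSD1, with replicate 1 given before replicate 2 here and throughout. This is a log2 fold change of -2.23 (SE 0.07, n = 2 and 2; limma adjusted p = 2.91e-05). All 10 markers of differentiating muscle passed the signal filter on these arrays. Their summed signal lay between 176892 and 180307 in shControl and between 127146 and 136651 in shLSD1, and 7 of the 10 fell. Endothelial markers were below the filter in all 8 measured cases, while 3 of 9 leukocyte, 2 of 10 epithelial, 5 of 8 fibroblast and 3 of 6 Schwann cell markers passed it. The filter is on the mean of all arrays, and single arrays could exceed its value of 65.6. The endothelial gene Tek read 27.8 and 26.4 in shControl and 66.9 and 109 in shLSD1. Cldn5 read 69.3 and 67.9 in shControl and 61.6 and 11.8 in shLSD1. The 3 leukocyte markers that passed, Cd53, Csf1r and Laptm5, read between 84.4 and 307 over all arrays, and none was called. The leukocyte gene Ptprc, below the filter, had signals of 6.10 and 8.40 in shControl and of 2.67 and 6.94 in shLSD1.

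Of the 22 tested genes, 3 were higher and 1 was lower in shLSD1 at a Benjamini-Hochberg adjusted p below 0.05 in limma, a linear model fitted to the log2 signals of all tested genes. Itga4, Itgb8 and Lama5 rose and Itga7 fell. That is 18.2% of the tested members, beside 15.8% of the 10874 genes tested on these arrays, so the share called was near the background. By direction, 8.75% of all tested genes were higher and 7.09% lower. The median log2 fold change of the 22 genes was 0.05, beside 0.00 (0.0036) over all tested genes. In 12 of the 22 the arrays of the groups did not overlap, 8 of them higher and 4 lower in shLSD1. Over all tested genes 60.1% did not overlap, 30.7% higher and 29.4% lower.

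The stretch of genome before the transcription start is shown for the 3 genes that rose, as none was available for Itga7. Each is the 250 bases before a RefSeq start, from build GRCm38.p6, written 5′ to 3′ along the gene's own strand. Itga4 lies at chr2:79255176-79255425 on the plus strand, Itgb8 at chr12:119238277-119238526 on the minus strand and Lama5 at chr2:180225860-180226109 on the minus strand. Capitals mark matches, on either strand, to CAGCTG (an E-box of the kind myogenic factors bind), TGANTCA (the AP-1 motif), CATTCC (the MCAT motif of TEAD factors) and GGGCGG (the GC box).
Itga4: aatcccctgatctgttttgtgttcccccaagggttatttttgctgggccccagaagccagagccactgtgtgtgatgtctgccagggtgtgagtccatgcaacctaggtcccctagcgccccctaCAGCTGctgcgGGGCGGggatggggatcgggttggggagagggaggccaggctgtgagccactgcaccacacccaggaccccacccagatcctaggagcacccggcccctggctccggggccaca
Itgb8: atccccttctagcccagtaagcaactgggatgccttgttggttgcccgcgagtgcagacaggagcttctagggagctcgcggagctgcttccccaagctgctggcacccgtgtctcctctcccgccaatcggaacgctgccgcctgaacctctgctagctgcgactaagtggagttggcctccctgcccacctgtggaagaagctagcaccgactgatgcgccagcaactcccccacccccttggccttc
Lama5: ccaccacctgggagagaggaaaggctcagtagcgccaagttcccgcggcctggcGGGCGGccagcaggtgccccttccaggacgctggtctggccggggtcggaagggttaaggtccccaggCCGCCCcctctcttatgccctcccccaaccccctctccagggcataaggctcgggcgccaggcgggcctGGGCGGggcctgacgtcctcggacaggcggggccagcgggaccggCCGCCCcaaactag

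The Itga4 window held 1 CAGCTG and 1 GGGCGG, that of Lama5 held 4 GGGCGG and none of the other motifs, and that of Itgb8 held none of the 4 motifs searched. No matches overlapped each other in these windows. Among all 32851 RefSeq windows of this length, CAGCTG stood in 13.0%, TGANTCA in 6.75%, CATTCC in 12.6% and GGGCGG in 32.7%. A window was found for 22 of the 34 members, some with more than 1. CAGCTG stood in 6 of these genes, TGANTCA in 1, CATTCC in 3 and GGGCGG in 8. These counts are per gene, over all windows of the gene, while the shares above are per window. Thus no motif searched stood in the windows of all 3 genes that rose, and GGGCGG stood in those of Itga4 and Lama5. A match is a description of letters and does not show that a factor binds there.

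Itga4 encodes the alpha chain that pairs with the Itgb1 or Itgb7 chain and binds fibronectin and the cell surface ligand VCAM-1. It read 269.96 and 307 in shControl and 573 and 534 in shLSD1. Both knockdown arrays lay above both control arrays, with 1.74 times as much in the lower knockdown array as in the higher control array. Itga4 thus rose 1.92-fold, 0.94 on the log2 scale (n = 2 and 2, SE 0.12; limma adjusted p = 0.00228). The call held with each array left out in turn and was lost with the mean of the gene's 5 probe sets (0.41, limma adjusted p = 0.458). A second probe set of Itga4 read 160 and 119 in shControl and 228 and 223 in shLSD1 (0.71, limma adjusted p = 0.0553), another gave 0.20 (limma adjusted p = 0.686), and the remaining 2 were below the filter. Itga9, which encodes the related alpha chain, was below the filter, with signals of 66.8 and 29.98 in shControl and 63.3 and 61.5 in shLSD1.

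Among the alpha chains that bind laminin, the muscle chain fell while the other 2 did not pass the test. Itga7 had signals of 11371 and 11279 in shControl and of 8681 and 9984 in shLSD1. Both knockdown arrays were lower, and they differed from each other more than the control arrays did. It fell by 0.28 on the log2 scale (n = 2 and 2, SE 0.07; limma adjusted p = 0.0264), which leaves 82.2% of the control signal. The call was lost without shControl replicate 1 (limma adjusted p = 0.186), without shControl replicate 2 (limma adjusted p = 0.163), with no filter and without the intensity trend (the term that lets the expected variance follow the signal), at adjusted p values from 0.0610 to 0.186. The mean of probe sets, under which fewer genes were tested, gave an adjusted p of 0.0642. Signals of 7 of the 10 muscle markers fell on the same arrays, and their part in the fall of Itga7 was not tested. In bulk RNA, fewer differentiated cells and less RNA per cell cannot be told apart.

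Itga3, whose chain is best known from epithelia, came closest to the threshold without passing it. It read 623 and 870 in shControl and 1356 and 990 in shLSD1, so the groups did not overlap but the arrays within each group were far apart. Its log2 fold change was 0.66 (SE 0.19, 95% interval 0.22 to 1.09; limma adjusted p = 0.0522). It measured 0.90 without shControl replicate 2 and 0.88 without shLSD1 replicate 2. It measured 0.41 without shControl replicate 1 and 0.43 without shLSD1 replicate 1. It also passed when its 3 probe sets, 1 of them below the filter, were averaged (1.13, limma adjusted p = 0.0153). Its other probe sets read 97.9 and 96.0 against 185 and 125, and 22.7 and 32.5 against 83.2 and 163, so all 3 had both knockdown arrays above both control arrays. Itga6, the laminin receptor chain of myoblasts, read 3379 and 3413 in shControl and 3267 and 3758 in shLSD1. These groups overlapped, and the difference of 0.05 had a 95% interval from -0.12 to 0.21 (limma adjusted p = 0.718).

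The tested alpha chains that recognise the RGD sequence of fibronectin and vitronectin did not pass the threshold. Itgav, the partner of several beta chains, read 6814 and 6381 in shControl and 6648 and 6485 in shLSD1. The groups overlapped, and the 95% interval of its log2 fold change ran from -0.12 to 0.11. Itga5, the fibronectin receptor chain, read 262 and 213 in shControl and 284 and 257 in shLSD1 (0.19, limma adjusted p = 0.455). Its other probe sets above the filter gave 0.29 and 0.90, the latter from signals of 57.8 and 64.8 against 113 and 115 (limma adjusted p = 0.0565). Itga2b, known as the platelet integrin chain, read 241 and 219.5 in shControl and 254 and 225 in shLSD1, which overlap (0.05, 95% interval -0.30 to 0.40; limma adjusted p = 0.849). The collagen receptor chain gene Itga10 also overlapped, with 512 and 378 in shControl and 490 and 312 in shLSD1 (-0.17, limma adjusted p = 0.665). Of these 4 genes, 0 passed in limma and 0 had an unadjusted limma p under 0.05.

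**Figure D1:**
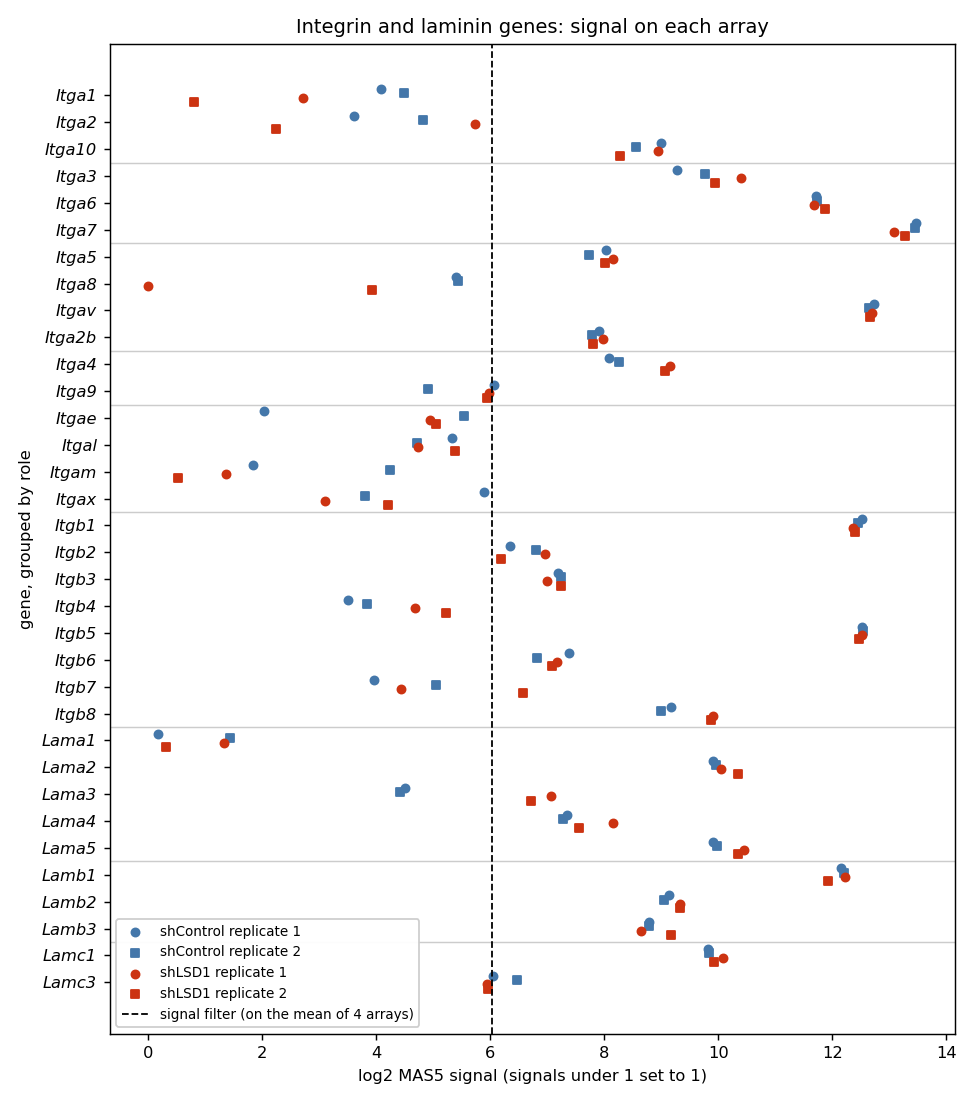
Log2 MAS5 signal of each of the 34 integrin and laminin genes (rows, grouped by role) on each of the 4 arrays, with blue for shControl, red for shLSD1, circles for replicate 1 and squares for replicate 2. The dashed line is the signal filter at 6.03; both knockdown arrays of Itga4, Itgb8 and Lama5 lie to the right of both control arrays, and those of Itga7 to the left.

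Of 6 tested beta chains, 1 rose and 0 fell. That one was Itgb8, whose chain pairs with the Itgav chain and is known for activating latent TGF-beta. Its signal was 579.9 and 509 in shControl and 966 and 941 in shLSD1. Both knockdown arrays lay above both control arrays, and each pair was close. The log2 fold change of 0.81 (SE 0.09, n = 2 and 2; limma adjusted p = 0.00164) equals 1.75-fold, and its call held in all 15 alternatives, from 0.72 to 0.90. Among its known partners and substrates, Itgav read as given above, the latent TGF-beta gene Tgfb1 measured -0.40 (limma adjusted p = 0.0612), Tgfb3 fell by 0.39 (limma adjusted p = 0.00989), and the latent TGF-beta binding protein gene Ltbp1 measured -0.15 (limma adjusted p = 0.253). Those 3 genes were picked after their values were seen, and the call of Tgfb3 was lost without shControl replicate 2.

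The common beta chain gene Itgb1, whose chain pairs with most of the alpha chains named here, read 5872 and 5633 in shControl and 5253 and 5435 in shLSD1. Both knockdown arrays were slightly lower, and the log2 fold change was -0.11 (SE 0.05, 95% interval -0.22 to 0.01; limma adjusted p = 0.193). The Itgb1 probe sets did not give the same answer. A second bright one read 5150 and 5988 against 5251 and 5554 (-0.04, limma adjusted p = 0.783). The remaining one above the filter, of the type prone to cross-hybridisation, read 1283 and 1397 against 966 and 959 and was lower past the threshold (-0.48, SE 0.08; limma adjusted p = 0.00671).

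Itgb5, the vitronectin receptor chain, read 5920 and 5995 in shControl and 5918 and 5679 in shLSD1 (-0.04, 95% interval -0.15 to 0.07). Its 3 other probe sets, all above the filter, gave 0.00 (0.0016), 0.03 and 0.03. Itgb3, another partner of the Itgav chain, read 147 and 152 in shControl and 127 and 152 in shLSD1 (-0.11, limma adjusted p = 0.757). Itgb6, the epithelial partner of that chain, read 166 and 113 in shControl and 145 and 136 in shLSD1 (0.04, limma adjusted p = 0.936). Itgb2, the leukocyte beta chain, read 81.9 and 112 in shControl and 125 and 73.5 in shLSD1. Its 95% interval of -0.76 to 0.76 shows that a change of either sign could not be resolved for so dim a probe set.

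**Figure D2:**
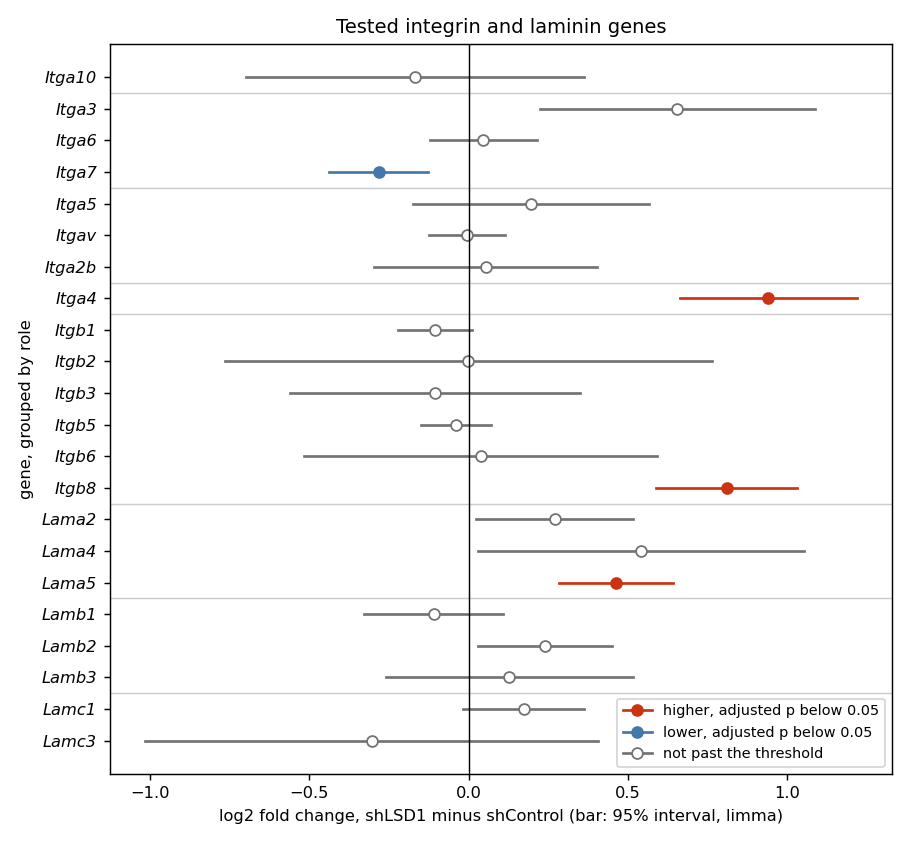
Log2 fold change, shLSD1 minus shControl, of the 22 tested integrin and laminin genes (points) with the 95% interval from limma (bars), grouped by role. Filled red points are Itga4, Itgb8 and Lama5, which were higher, the filled blue point is Itga7, which was lower, and open points did not pass the threshold.

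Of 8 tested laminin genes, 5 had both knockdown arrays above both control arrays and 1 had both below, beside 30.7% and 29.4% of all tested genes. The 5 include all 3 tested alpha chains, of which 1 passed the threshold. Lama5, whose chain is part of the laminins of many developing basement membranes, read 957 and 1007 in shControl and 1408 and 1297 in shLSD1. The lower knockdown array was 1.29 times the higher control array. Lama5 rose by 0.46 on the log2 scale (n = 2 and 2, SE 0.08; limma adjusted p = 0.00715). A second Lama5 probe set read 452 and 494 against 708 and 722 and also rose (0.60, SE 0.10; limma adjusted p = 0.00699), while the remaining one was dim, at 10.8 and 15.9 against 1.77 and 11.8. The mean of all 3 was -0.15 (limma adjusted p = 0.802). The call was also lost without shControl replicate 1 (0.42, limma adjusted p = 0.0714) and without the intensity trend (limma adjusted p = 0.0557).

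Lama2, the muscle laminin alpha chain, read 957 and 997 in shControl and 1061 and 1308 in shLSD1. The shLSD1 arrays were far apart, and the log2 fold change of 0.27 (SE 0.11, 95% interval 0.02 to 0.52) had a limma adjusted p of 0.129. It measured 0.42 without shLSD1 replicate 1 and 0.12 without shLSD1 replicate 2. Lama4, a chain of vascular and developing basement membranes, read 164 and 156 in shControl and 286 and 189 in shLSD1 (0.54, SE 0.22; limma adjusted p = 0.141). It measured 0.84 without shLSD1 replicate 2 and 0.24 without shLSD1 replicate 1. A second Lama4 probe set, below the filter, read 42.3 and 25.5 against 63.5 and 44.7.

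Of the 5 tested beta and gamma chain genes of laminin, 0 passed in limma, and 1 had an unadjusted p under 0.05. That was Lamb2, the beta chain found at the neuromuscular synapse, with 560 and 532 in shControl and 645 and 644 in shLSD1 (0.24, SE 0.09; limma adjusted p = 0.117). Lamb1, the widespread beta chain, read 4545 and 4752 in shControl and 4793 and 3872 in shLSD1, which overlap (-0.11, limma adjusted p = 0.482). It measured -0.26 without shLSD1 replicate 1 and 0.045 without shLSD1 replicate 2. Its other 2 probe sets above the filter gave -0.02 each.

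Lamc1, the gamma chain of most laminins, read 910 and 911 in shControl and 1080 and 976 in shLSD1 (0.17, 95% interval -0.02 to 0.36; limma adjusted p = 0.199). Lamb3, a chain of epithelial laminin, read 444 and 440 in shControl and 403 and 578 in shLSD1, which overlap (0.13, limma adjusted p = 0.656). Lamc3, a gamma chain of restricted expression, read 66.3 and 88.95 in shControl and 61.8 and 62.6 in shLSD1. It lay at the filter, and its difference of -0.30 had a 95% interval from -1.01 to 0.41 (limma adjusted p = 0.553).

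**Figure D3:**
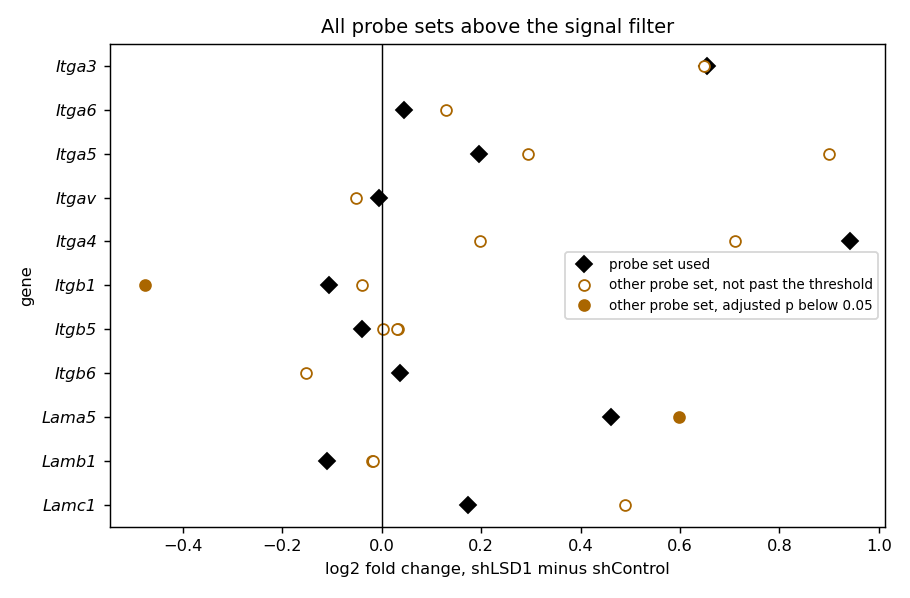
Log2 fold change, shLSD1 minus shControl, of every probe set above the signal filter for the 11 members that have more than 1 such probe set. Black diamonds are the probe sets used, and circles the others, filled where the adjusted p was below 0.05; Lama5 rose in both of its probe sets, and 1 Itgb1 probe set, at -0.48, stands apart from the other 2.

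The 12 members below the filter are given by their signals. Lama3, an alpha chain of epithelial laminin, read 22.7 and 21.4 in shControl and 133 and 105 in shLSD1. Only its knockdown signals were above the filter value of 65.6. No fold change is given against control signals this far below the filter. Its second probe set read 5.29 and 2.30 in shControl and 41.4 and 6.76 in shLSD1. In the epithelial marker list, 2 of 10 genes passed the filter, 1 of them, Cdh1, rose, with shControl signals below the filter value, and the summed signal was 331 to 332 in shControl and 437 to 484 in shLSD1. The defining marker Epcam stayed between 3.16 and 7.19 on all arrays, and the part of these markers in the Lama3 values was not tested.

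Itgb4, the epithelial partner of the Itga6 chain, also had both knockdown arrays above both control arrays, at 11.3 and 14.4 against 25.7 and 37.4, all below the filter value. Itga8, a receptor chain for nephronectin, read 42.2 and 43.1 in shControl and 0.595 and 15.3 in shLSD1. Itga1, a collagen receptor chain, read 17.0 and 22.4 in shControl and 6.54 and 1.75 in shLSD1. With no filter neither was called (limma adjusted p = 0.184 and 0.205). Lama3 was called higher there (limma adjusted p = 0.0157), a call that rests on control signals far below the filter. Itga2 read 12.2 and 28.4 against 53.4 and 4.72, and Lama1, the embryonic laminin alpha chain, stayed between 1.13 and 2.72. The leukocyte chain genes Itgae, Itgal, Itgam and Itgax stayed between 1.43 and 59.2 on all arrays. Itgb7, the lymphocyte beta chain, read 15.6 and 33.3 in shControl and 21.6 and 95.1 in shLSD1, so its arrays overlapped.

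Genes that work with integrins were taken from lists chosen by function, in which 37, 33 and 28 genes had a probe set. Of 35 tested genes for the cytoplasmic adhesion machinery, 4 rose and 3 fell (20%, beside 15.8% of all tested genes), with a median of 0.01. Itgb1bp2, the gene for melusin, a muscle protein that binds the Itgb1 tail, read 4311 and 4443 in shControl and 1528 and 1582 in shLSD1. Its log2 fold change was -1.49 (SE 0.06, limma adjusted p = 3.27e-05). The 10 muscle markers measured -0.86 to -0.09, and their part in the fall of Itgb1bp2 was not tested. Tns2, a tensin gene, rose from 620 and 663 to 1243 and 1195 (0.93, SE 0.08; limma adjusted p = 5.82e-04). Lims2, the gene for the adaptor PINCH-2, rose from 360 and 429.6 to 774 and 739.9 (0.94, SE 0.11; limma adjusted p = 0.0018). Fermt2, which encodes the integrin activator kindlin-2, fell by 0.27 (limma adjusted p = 0.0124).

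Parvb (0.32) and the focal adhesion kinase relative Ptk2b (0.55) also rose, and Vasp, an actin regulator gene, fell by 0.25. These 3 are named after their values were seen. Leaving out either shControl array ended the calls of Fermt2, Parvb, Ptk2b and Vasp, and leaving out either shLSD1 array that of Ptk2b. The mean of probe sets also ended those of Fermt2 (-0.11), Parvb (0.15) and Ptk2b (0.35). Named for their central roles, the talin gene Tln1 measured 0.09, the vinculin gene Vcl -0.03, the paxillin gene Pxn 0.01 and the integrin-linked kinase gene Ilk -0.02, with limma adjusted p values from 0.45 to 0.942.

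The next list held genes for other basement membrane proteins, other laminin receptors, their glycosyltransferases and associated proteins. Of its 23 tested genes, 3 rose and 3 fell (26.1%, beside 15.8% of all tested genes), with a median of -0.03. Bcam, which encodes a receptor for the Lama5 chain, rose from 260 and 254 to 482 and 621 (1.09, SE 0.14; limma adjusted p = 0.00276). Cd151, a tetraspanin gene whose product associates with laminin-binding integrins, rose by 0.25 (limma adjusted p = 0.0108). Npnt, the gene for the Itga8 ligand nephronectin, fell from 7367 and 7000 to 4637 and 5768, a change of -0.47 (SE 0.09; limma adjusted p = 0.0142). Sparc fell by 0.23 (limma adjusted p = 0.00713). The other members called, named after their values were seen, were Col4a5 (0.54) and the agrin gene Agrn (-0.67). Without shControl replicate 1 or shControl replicate 2 the calls of Cd151, Npnt, Sparc, Col4a5 and Agrn were lost, and that of Col4a5 also without shLSD1 replicate 2. Calls over all tested genes also became fewer without either shControl array. The dystroglycan gene Dag1, the other main laminin receptor of muscle, measured -0.03 (95% interval -0.18 to 0.11; limma adjusted p = 0.748), and the nidogen gene Nid1, which bridges laminin and type IV collagen, -0.16 (limma adjusted p = 0.0855).

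Of 20 tested genes for integrin ligands outside the laminins and collagens, 10 fell and 2 rose (60%), with a median of -0.40. Over all tested genes 15.8% were called, 7.09% lower and 8.75% higher. Matrix genes were known to be lower in these samples when the list was chosen, so the direction is not independent evidence. Adam12, whose product binds integrins and takes part in myoblast fusion, fell from 1035 and 1018 to 308 and 345 (-1.66, SE 0.10; limma adjusted p = 1.05e-04). Thbs1, the thrombospondin-1 gene, fell from 11121 and 11799 to 5762 and 6923 (-0.86, SE 0.08; limma adjusted p = 8.29e-04). Tnc (-1.33) and Ccn2 (-1.69) were the other 2 with the smallest adjusted p, and both fell. The genes for both main ligands of the chain encoded by Itga4 fell while Itga4 rose. Fn1, the fibronectin gene, read 29819 and 29259 in shControl and 24597 and 24558 in shLSD1 (-0.27, SE 0.04; limma adjusted p = 0.00344), and Vcam1 read 2685 and 2852 in shControl and 2156 and 1713 in shLSD1 (-0.53, SE 0.10; limma adjusted p = 0.0138). Both are named after their values were seen, and both calls ended when either shControl array was left out. The ligand genes that rose were Mfge8 (0.26), whose call was lost without either shControl array, and Cdh1 (1.38), whose shControl signals of 60.1 and 51.9 were below the filter value and whose call was lost without shControl replicate 2. Of 5 tested fibroblast markers 4 fell, with a summed signal of 32459 to 32726 in shControl and 24721 to 24928 in shLSD1, and their part in the ligand genes' values was not tested.

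**Figure D4:**
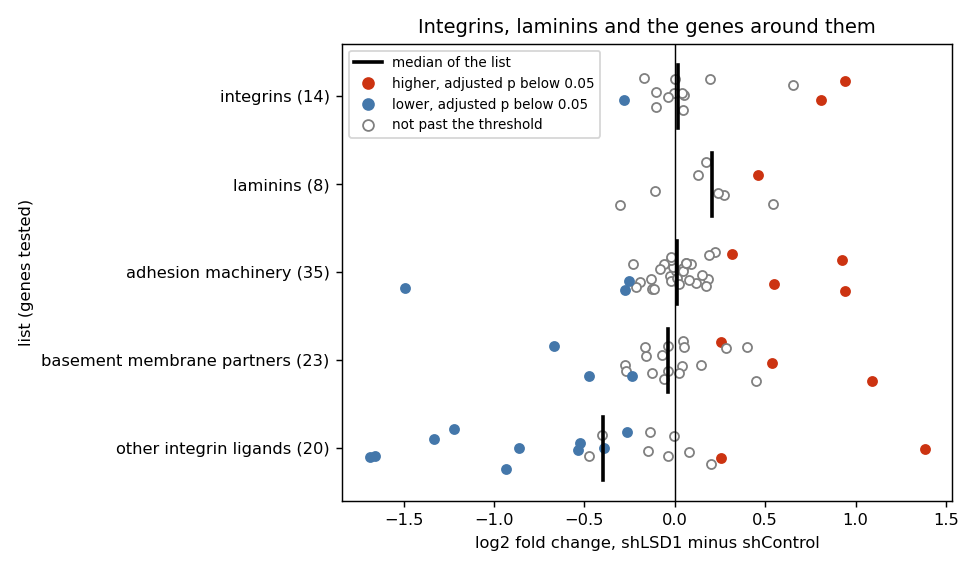
Log2 fold change, shLSD1 minus shControl, of each tested integrin, laminin, adhesion machinery, basement membrane and integrin ligand gene (points, spread vertically for legibility), with the list median as a black bar. Red points were higher and blue points lower at an adjusted p below 0.05; the median of the ligand genes is -0.40, and that of the integrins 0.02.

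The 4 called members and Itga3 were followed through all settings. Itgb8 passed in 15 of 15 alternatives and Itga4 in 13 of the 14 in which it was tested. Lama5 passed in 12 of 15, Itga7 in 9 of 15 and Itga3 in 4 of 15. Itga4, Itgb8, Itga7 and Itga3 had 1 direction throughout, and Lama5 had 1 direction except with the mean of its probe sets. The counts include fits with 1 array left out, in which the spread comes from the arrays of 1 group only.

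**Figure D5:**
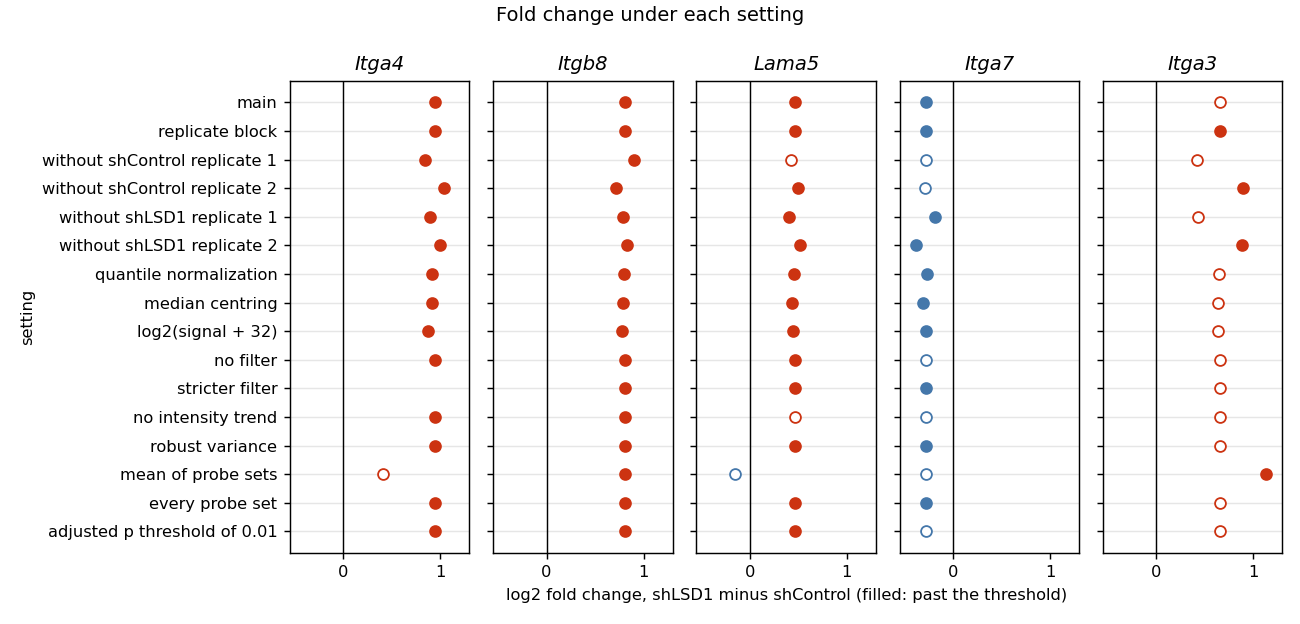
Log2 fold change, shLSD1 minus shControl, of Itga4, Itgb8, Lama5, Itga7 and Itga3 (panels) under the main setting and each alternative (rows), filled where the call passed the threshold. Itga4 has no point at the stricter filter because its signal lies below that filter.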

How the data were processed

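The values deposited by the authors are MAS5 signal intensities per probe set on a linear scale, made with MAS5 and Affymetrix Expression Console per the submitters' processing notes (no versions are stated there). The trimmed mean was 500.003 on all 4 arrays, and 1 factor per array leaves differences in distribution shape in place. Log2 was taken after raising signals below 1 to 1. Of 45101 probe sets, 34945 had 1 gene symbol, 932 several and 9160 none. For each of 18193 genes the brightest such probe set was used, avoiding the cross-hybridising type. The 10874 genes with a mean above the median of all probe sets were fitted with limma 3.58.1 in R 4.3.3 (trend, two-sided, Benjamini-Hochberg over all of them, threshold 0.05), and checked on simulated data. Figures used matplotlib 3.10.9.

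All members are named. Statistics are given for those tested, signals for the rest, and for each list the 4 smallest adjusted p. Lama3, Itga8 and Itga1, below the filter, also have an adjusted p from the fit with no filter. Members, lists and rules were chosen with earlier results of these data known. Genes of the lists not named on these probe sets were not analysed here. The alternatives tried were each array left out, a replicate block, other scalings, filters, variance models, probe set rules, log2(signal + 32) and a threshold of 0.01.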

Additional observations from a re-analysis of the deposited data

How the results depend on the processing

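Among members, 3 rose and 1 fell, and with no filter 4 rose, Lama3 being added. With no filter, no intensity trend, the mean of probe sets or a threshold of 0.01, 0 fell in limma (3, 1, 1 and 1 with an unadjusted p under 0.05). Leaving out each array gave 2 to 5 higher and 0 to 2 lower. The arrays share replicate numbers but no stated pairing, and deviations of same-numbered arrays correlated at 0.003. With the replicate block 5 members were higher, Itga3 and Lama2 being added, 5 basement membrane genes were lower, and 1236 and 985 of all tested genes were higher and lower, against 951 and 771.

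In the adhesion machinery (4 higher, 3 lower), no intensity trend gave 2 and 1, the mean of probe sets 2 higher, a threshold of 0.01 2 and 1, and leaving out each array 2 to 6 and 1 to 6. In the basement membrane list (3 and 3), no intensity trend gave 0 lower (3 at an unadjusted p under 0.05), the mean of probe sets 1 and 1, a threshold of 0.01 1 and 1, and leaving out each array 1 to 4 and 0 to 5. In the ligand list (2 higher, 10 lower), the stricter filter, no intensity trend and a threshold of 0.01 gave 1 higher, and leaving out each array gave 0 to 3 and 7 to 11. Over all genes, no intensity trend gave 377 and 262, the mean of probe sets 493 and 407, a threshold of 0.01 416 and 348, and leaving out each array 347 to 1151 and 228 to 1040. The value of Lama5 was -0.15 and that of Fbln5 0.043 with the mean of probe sets, against 0.46 and -0.93. For Lama5 this follows from its dim probe set, which enters that mean with the sign opposite to the other 2. For Fbln5 the cause was not tested. Kdm1a stayed lower in every alternative. Dim probe sets limit what can be said of the 12 members below the filter.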
